A study of Mus musculus with 6 samples.

Results

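Microglia made up 163 of the 22796 annotated nuclei of the developing mouse suprachiasmatic nucleus (SCN), the hypothalamic structure that holds the central circadian clock. They were the nuclei that the authors' own cell annotation calls microglia, and each was placed in its library by its barcode. All 163 could be placed. Nuclei came from micro-dissected SCN of wild-type C57BL6/J mice at gestational day 17.5 (GD17.5) and at postnatal days 2, 10 and 30 (PND2, PND10 and PND30), with no treatment in any group. There was 1 library each at GD17.5 and PND2 and there were 2 each at PND10 and PND30, 6 in all. Each stage was a pool of fetuses or pups of both sexes, taken in the morning hours of the light phase, and the libraries of PND10 and PND30 were prepared and sequenced in repeated rounds. Since nothing states that the 2 libraries of a stage came from separate pools of animals, their spread, and every p-value resting on it, may be technical.

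Microglia are the resident immune cells of the brain. They enter the neural tissue early in embryonic life from the yolk sac, not from the neural lineage that gives rise to neurons, astrocytes and oligodendrocytes, and they multiply and mature in place over the first weeks after birth. In the mature brain they survey their surroundings with fine processes, clear debris and remove synapses. Cx3cr1, the receptor for the neuronal chemokine fractalkine, and Ly86, a partner protein of a toll-like receptor relative, are the markers given for them here. The rows of the count matrices used here are not paired with gene names. Neither marker, nor any list of genes, could therefore be looked up. Only the pattern of unnamed rows (features, each a gene of the reference) was described, so the name of the cluster was not checked. For the same reason no gene is named and no sequence is shown, and a row is identified only by its number in the matrix, counted from 1.

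The counts of microglia were small. The annotation held 14 microglial nuclei of GD17.5 and 32 of PND2, while replicates 1 and 2 gave 27 and 48 for PND10, and 8 and 34 for PND30. A unique molecular identifier (UMI) marks one captured RNA molecule, and the summed counts of microglia came to 58540 UMIs for GD17.5 and 161214 for PND2. The PND10 sums were 192304 and 203079 UMIs and the PND30 sums 63668 and 60967. Of the microglial barcodes, 3 also occurred in a library of another stage, 1 of them as another annotated nucleus, and 0 occurred in both libraries of their own stage.

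As a share of all annotated nuclei, microglia were 0.284% at GD17.5 (95% exact Clopper-Pearson interval 0.156% to 0.477%) and 0.576% at PND2 (0.394% to 0.812%). These and all other intervals cover counting error only. The shares count annotated nuclei, and leave out barcodes outside the annotation that resembled microglia, which were unequal over libraries and are given at the end. In PND10 replicate 1 the share was 1.98% (1.31% to 2.87%), and in replicate 2 it was 1.02% (0.752% to 1.35%). In PND30 replicate 1 it was 1.04% (0.449% to 2.03%), and in replicate 2 it was 0.622% (0.431% to 0.868%). The shares of PND10 and PND30 overlapped. PND10 had a mean of 1.50% ± 0.683 (SD, n = 2 libraries) and PND30 one of 0.830% ± 0.294 (SD, n = 2), a difference of -0.67 percentage points (exact permutation test, two-sided, p = 0.667). The smallest p that 2 libraries against 2 can give is 0.333, so this design cannot pass a threshold of 0.05. Between replicate 1 of both stages the difference was -0.946 percentage points, and between replicate 2 it was -0.396. Libraries of the same number were not treated as pairs. GD17.5 and PND2 have no replicate library and were not tested.

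The order of the stages depended on what microglia were counted against. Among non-neuronal nuclei alone they were 2.26% at GD17.5 (1.24% to 3.77%), 3.53% at PND2 (2.43% to 4.95%), 6.07% and 4.77% in the PND10 pair, and 7.08% and 6.16% in the PND30 pair. On this denominator the lowest value was again that of GD17.5, but both libraries of PND30 lay above both of PND10, with means of 6.62% ± 0.651 (SD, n = 2) and 5.42% ± 0.920 (SD, n = 2), a difference of 1.20 percentage points (exact permutation test, two-sided, p = 0.333, the smallest possible). The intervals of these 4 libraries overlapped, and the widest, of PND30 replicate 1 with 8 microglia among 113 non-neuronal nuclei, ran from 3.11% to 13.5%. Counted per astroglial nucleus, microglia numbered 0.0286 in the GD17.5 library, 0.0479 in that of PND2, 0.0849 and 0.0749 in the pair of PND10, and 0.100 and 0.0872 in the pair of PND30.

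**Figure D1:**
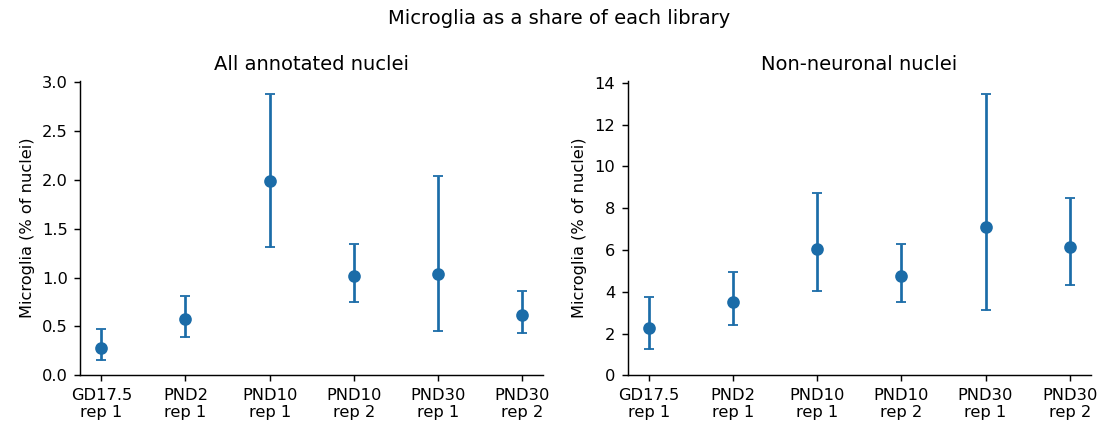
Microglia as a percentage of all annotated nuclei (left) and of non-neuronal nuclei (right), 1 point per library with its 95% exact Clopper-Pearson interval, both axes starting at 0. GD17.5 is lowest in both panels, at 0.284% and 2.26%, while on the left PND30 replicate 1, at 1.04%, lies between the PND10 libraries, and on the right both PND30 libraries lie above both of PND10.

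Microglial nuclei held little RNA. The median was 2879 UMIs per nucleus at GD17.5, 4060 at PND2, 3834 and 2297.5 in the PND10 pair, and 3297 and 1575.5 in the PND30 pair. All other annotated nuclei of the same libraries had medians of 4955, 4900, 8426, 4562.5, 12121 and 3156 UMIs, so that the microglial median was below that of the other nuclei in 6 of 6 libraries, at 0.272 to 0.829 times its value. Among cell types with at least 5 nuclei in a library, microglia had the lowest median in PND10 replicate 1 and in both libraries of PND30. In the other 3 libraries 1 or 2 types were lower, such as Avp+ neurons with a median of 1397 UMIs at GD17.5. NG2 cells/OPCs, the oligodendrocyte precursors, with at least 15 nuclei in each library, had medians of 2015.5 to 8945 UMIs, and the microglial median was 0.369 to 0.886 times theirs.

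Between PND10 and PND30 the median number of UMIs per microglial nucleus overlapped. The library medians averaged 3066 ± 1086 for PND10 (SD, n = 2) and 2436 ± 1217 for PND30 (SD, n = 2; exact permutation test, two-sided, p = 0.667). The difference of -629.5 UMIs turned to 138.75 without PND10 replicate 1 and to 231.25 without PND30 replicate 2. The PND30 median was 0.860 times the PND10 median in replicate 1 and 0.686 times in replicate 2, while the depth of the other nuclei moved with the replicate number too, being higher in replicate 1 of both stages.

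At a common depth microglia showed many different features. Each nucleus was thinned to 1000 UMIs, which left out 2 microglia of PND10 replicate 2 and 3 of PND30 replicate 2, and the features with at least 1 UMI were counted. The library medians were 797 features at GD17.5, 805 at PND2, 782 and 788.5 in the PND10 pair, and 782.5 and 802 in the PND30 pair. Neurons reached 716 to 743 features at the same depth, NG2 cells/OPCs 714 to 767, mature astrocytes 725 to 753 and mature oligodendrocytes 659 to 700. Immature astrocytes/ependymal cells reached 743 to 777.5, and came closest in PND10 replicate 1, at 777.5 against 782 in microglia. Microglia lay above these types in each library that held at least 5 nuclei of the type. Endothelial nuclei were the exception to a rank at the top, with 822 features in the 16 nuclei of PND2. The means of PND10, 785 ± 4.60 (SD, n = 2), and PND30, 792 ± 13.8 (SD, n = 2), were 7 features apart (exact permutation test, two-sided, p = 0.667), and without PND30 replicate 2 the difference was -2.75. Unthinned, the medians ran from 1176.5 features in PND30 replicate 2 to 2321.5 at PND2, the libraries with the fewest and the most UMIs per microglial nucleus.

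A set of matrix rows was then taken that sets microglia apart. A microglia row had a mean of at least 50 counts per 1000000 summed UMIs (CPM) in microglia, and a mean at least 4 times that of every other annotated cell type, with 10 CPM added to both. Of 4522 rows with at least 50 CPM in microglia, 160 (3.54%) met this rule. The clusters were made by the authors from these same counts, so the contrast with other cell types is a description and carries no test. The median ratio to the next cell type was 7.93, and the highest was 46.0. The ratio reached 8 in 78 of the 160 rows and 16 in 25, and 157 rows had at least 1 UMI in microglia of every library. A row was found in a median of 42.6% of microglial nuclei. Of the 160 rows, 17 were found in over 80% of microglia and 11 in under 20%, and the most widespread was found in 97.5%. The next highest type was most often the unidentified neuronal cells, in 37 rows, followed by endothelial cells in 27 and immature astrocytes/ependymal cells in 23.

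Row 7087 had the highest ratio. Its level in microglia was 444 CPM in the GD17.5 library, 490 CPM in that of PND2, 577 and 552 CPM in the pair of PND10, and 785 and 1115 CPM in the pair of PND30, from 26 to 112 UMIs a library. It stood at 4.59 CPM in the next type, immature astrocytes/ependymal cells. It was found in 132 of 163 microglia (81.0%, median depth 2781 UMIs), against 65 of 7363 early SCN neurons (0.883%, median depth 5113 UMIs), and it was found in 0 of 32 endothelial nuclei, which allows up to 9.38% of nuclei with a UMI and does not limit how many express it. In the other types with a detection the share ran from 0.649% of Cck+ neurons to 1.78% of mature oligodendrocytes. These shares give the background of detections outside microglia, at greater depth. With all nuclei both libraries of PND30 lay above the other 4. Without low nuclei, a group defined further on, they did not: the level was then 475 CPM at GD17.5, 742 CPM at PND2, 1121 and 1273 CPM in the PND10 pair, and 1504 and 1217 CPM in the PND30 pair. In the edgeR test of a slope over stages row 7087 was not called with all nuclei, and it was called without low nuclei (slope 0.51 log2 units a stage, adjusted p = 0.0370). Low nuclei were left out for a low share in microglia rows, a set that holds row 7087. The call without them is therefore not independent of that choice.

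Row 29125 had the second highest ratio, 44.2. Its microglial level was 376 CPM at GD17.5, 899 CPM at PND2, 634 and 665 CPM in the PND10 pair, and 785 and 1361 CPM in the PND30 pair. It was found in 142 of 163 microglia (87.1%) and in 60 of 7363 early SCN neurons (0.815%). It was also found in 26 of 1264 immature astrocytes/ependymal cells (2.06%) and in 1 of 32 endothelial nuclei. Outside microglia its highest mean was 8.01 CPM, in NG2 cells/OPCs. Without low nuclei its slope over stages was 0.49 (edgeR, adjusted p = 0.0433), and with all nuclei it was not called.

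At the opposite end, rows with at least 50 CPM in each other cell type were ranked by the ratio of microglia to the lowest of these types. Row 3074 stood at 59.6 CPM in microglia and at 102 to 293 CPM in the other types. It was found in 23 of 163 microglia (14.1%) and in 3661 of 7363 early SCN neurons (49.7%), at the unequal depths given above. Row 2642 stood at 118 CPM in microglia and at 178 to 303 CPM elsewhere. Without low nuclei row 2642 was lower in microglia of every library, at 29.7 to 111 CPM. Row 3074 then stood at 0 to 55.7 CPM, lower at GD17.5, PND2 and PND10. In the PND30 pair it went from 31.4 and 32.8 CPM, at 2 UMIs each, to 55.7 and 38.0 CPM.

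**Figure D2:**
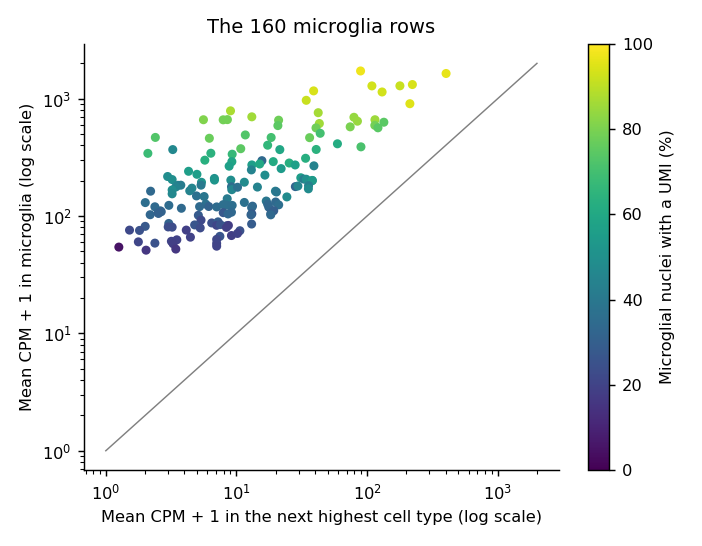
Mean level of each of the 160 microglia rows in microglia (vertical) against the next highest annotated cell type (horizontal), both as CPM + 1 on log axes, with the line of equality and the percentage of microglial nuclei with a UMI as colour. The rows span 4.91% to 97.5% of microglia, and rows with high levels in microglia tend to be found in more of its nuclei.

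How far the cluster holds together across libraries was described with rows that a library had not helped to choose. For each library the rule was applied to the other 5, which gave 138 to 169 rows, with 122 rows of the full list in all 6 of these lists, and the share of UMIs in those rows was computed per nucleus. The median microglial nucleus held 6.04% of its UMIs in them at GD17.5, 6.23% at PND2, 7.49% and 7.22% in the PND10 pair, and 8.09% and 6.40% in the PND30 pair. The median of all other annotated nuclei was 0.0827% to 0.153%, 41.8 to 77.4 times lower. Not 1 of the 22627 other placed nuclei reached a share of 0.5 times the microglial median of its library. With nuclei counted as independent, which they are not within a library, this allows up to 0.0133%. The unnamed rows therefore set the typical microglial nucleus apart from the rest in all 6 libraries. The authors' clustering had seen all of these nuclei, and the rows were chosen by its clusters. A separation was thus given in large part by the choice, and it does not check the name of the cluster.

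The microglial nuclei themselves fell into a large and a small group. In 34 of 163 (20.9%) the microglia-row share lay under 0.5 times their library's microglial median, a limit set after the values had been seen. These were 3 nuclei at GD17.5, 5 at PND2, 6 and 15 in the PND10 pair, and 2 and 3 in the PND30 pair, from 8.82% of the microglia in PND30 replicate 2 to 31.3% in PND10 replicate 2. Their share ran from 0.313% to 3.85%, against 4.02% to 10.5% in the other 129, and 2 nuclei lay within 20% of the limit. They are called low nuclei below. The low nuclei were larger, with a median of 8310.5 UMIs against 2372 in the other microglia, and 29 of 34 exceeded every other microglial nucleus of their library. Counted as molecules and not as a share, the microglia rows had a median of 132.5 UMIs in low nuclei and 168 in the others. The direction differed between libraries: low nuclei had the higher median in PND10 replicate 1 (257.5 against 242) and PND30 replicate 1 (546.5 against 284), and the lower one in the other 4.

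Low nuclei carried neuronal rows. These were rows chosen at each stage without microglia or endothelial cells, with at least 50 CPM in neurons and at least 4 times the level of the astroglial and oligodendroglial types. Their share of UMIs had a median of 5.66% in low nuclei and of 1.02% in the other microglia. In neurons the library medians were 6.15% to 9.55%. In 30 of the 34 low nuclei the share was 3.48% or more, above the highest value of the other 129, 2.61%, and in 26 it reached the 5th percentile of the neurons of their library, which 0 of the 129 did. The 4 remaining low nuclei, 1 each in PND10 replicate 2 and PND30 replicate 1 and 2 in PND30 replicate 2, had 7.59% to 9.71% of their UMIs in astroglial rows, chosen in the same way, while no other microglial nucleus of these stages exceeded 5.30%. Thus each low nucleus had a raised share of neuronal or of astroglial rows. Not each was set apart by microglia rows. In PND10 replicate 1 the lowest microglia-row share, 0.313%, was reached by 99 nuclei not annotated as microglia. In PND10 replicate 2 the lowest, 0.419%, was reached by 47. The authors had removed barcodes with a high doublet score before they made the annotation. Whether a low nucleus is a barcode that held more than 1 nucleus was not tested.

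**Figure D3:**
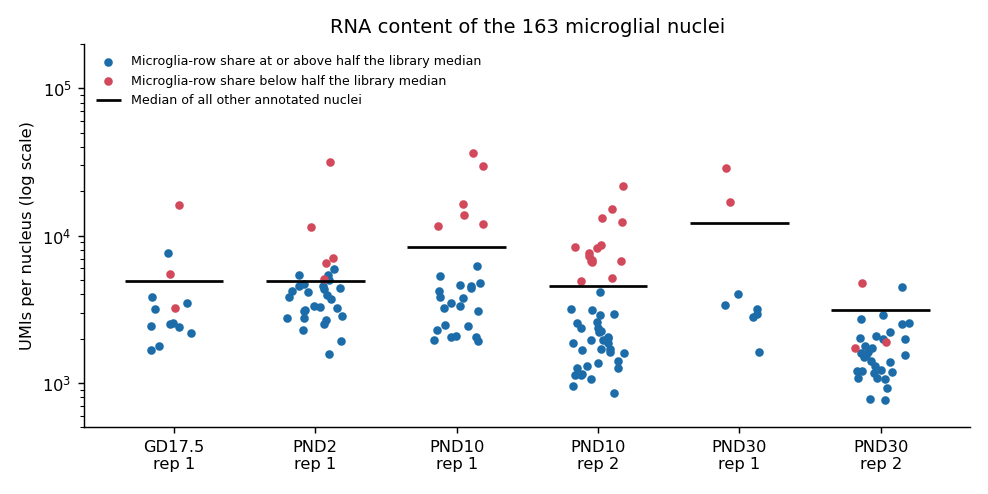
UMIs per microglial nucleus (log axis) in each library, 1 point per nucleus, with low nuclei in red, the other microglia in blue and the median of all other annotated nuclei as a black line. Of the 34 low nuclei, 29 lie above every other microglial nucleus of their library, and in PND30 replicate 2 the 3 of them range from 1719 to 4766 UMIs.

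**Figure D4:**
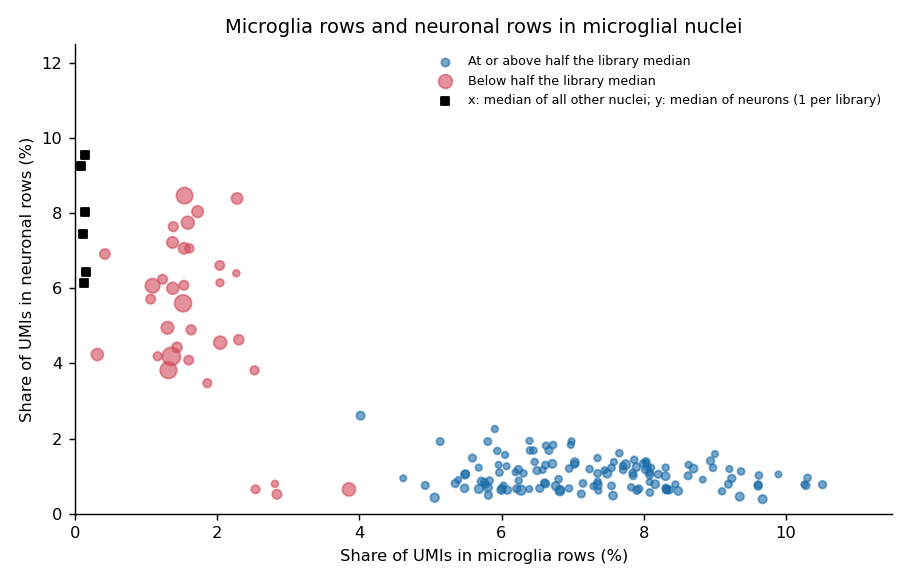
Share of UMIs in microglia rows (horizontal, from lists made without the nucleus's own library) against the share in neuronal rows (vertical) for each microglial nucleus, with a point's area growing with its UMIs. Of the 34 low nuclei (red), 30 lie above all 129 others (blue), and 4 lie low on both axes. Each black square is a library, with the microglia-row median of all other nuclei and the neuronal-row median of neurons.

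The rule for low nuclei was also applied to other glial types, each with rows of its own. In these, 114 of 692 NG2 cells/OPCs (16.5%), 69 of 1318 mature astrocytes (5.24%) and 15 of 165 mature oligodendrocytes (9.09%) were low, and 0 of these low nuclei reached the neuronal level of neuronal rows. The lists of these types were shorter, with 4 to 10 rows for NG2 cells/OPCs, 31 to 34 for mature astrocytes and 65 to 75 for mature oligodendrocytes. In NG2 cells/OPCs of GD17.5 the median share in their own rows was 0.151%, a few UMIs a nucleus, and 39 of 103 were low there, so these shares are not comparable with the 20.9% of microglia. The neuronal rows had been chosen against these 3 types but not against microglia, so this difference was not tested.

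Because of their size the low nuclei weighed heavily in summed counts. They held 54.1% of all microglial UMIs, and 42.5% in the GD17.5 library, 38.1% in that of PND2, 62.4% and 68.7% in the pair of PND10, and 71.8% and 13.7% in the pair of PND30. In PND30 replicate 1 a single low nucleus held 45.4% of the summed microglial UMIs. The sums of the PND30 libraries thus differed in makeup, and each comparison of summed counts was made with and without low nuclei. Without them the share of all annotated nuclei was 0.224% at GD17.5, 0.486% at PND2, 1.54% and 0.700% in the PND10 pair, and 0.778% and 0.567% in the PND30 pair. The median of UMIs per nucleus was then 2531, 3747, 3319, 1864, 3060 and 1539 in the same order, still below the other nuclei of each library.

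Likeness between libraries is given as a description, over 4522 rows, and carries no test, since rows of a library share its depth and preparation. With each sum thinned to 58540 UMIs, log2(CPM + 10) of microglia correlated at r = 0.43 to 0.69 between pairs of libraries, and at 0.25 to 0.53 between microglia and NG2 cells/OPCs of the same library. Without low nuclei and at 17954 UMIs, the ranges were 0.40 to 0.52 and 0.083 to 0.17. The rows were those with at least 50 CPM in microglia, a choice made through microglia alone that favours likeness between microglial sums, so the ranges are not a comparison of the types.

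To ask whether microglia changed between the 2 later stages, their summed counts were compared row by row between PND30 and PND10 (edgeR quasi-likelihood test, Benjamini-Hochberg adjusted p under 0.05, as in all comparisons below). With all nuclei 0 of 3429 rows passed (0%), while the unadjusted p was under 0.05 in 538 rows. DESeq2, with no such filter on low counts, gave 55 calls in 18164 rows (0.303%). The count rested on single libraries. Without PND30 replicate 1, the library with the dominant low nucleus, 456 rows passed, and without PND10 replicate 1 the count was 42. Without low nuclei 4 of 1407 rows passed (0.284%), all higher at PND30. DESeq2 then called 1 of 14989 (0.00667%).

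Of these 4 rows, the one with the smallest p rose from 8 and 3 UMIs at PND10 to 24 and 87 at PND30, or from 111 and 47.2 CPM to 1337 and 1654 CPM, a log2 change of 4.30 ± 0.42 (SE; adjusted p = 2.33e-06). All other nuclei held this row at 987 and 1077 CPM at PND10 and at 806 and 625 CPM at PND30. The microglial level was therefore below that of the other nuclei at PND10 and above it at PND30. Row 8602 rose too, with a log2 change of 2.12 ± 0.33 (SE; adjusted p = 0.00149). It is a microglia row, and the other nuclei held it at 1.21 to 1.83 CPM in these 4 libraries. Low nuclei were chosen by their share in such rows, so the call of row 8602 is not independent of that choice. The remaining 2 rows were higher in the other nuclei than in microglia in 3 or more of these libraries, 1 of them at 5585 to 10165 CPM. Of 128 microglia rows tested, 1 passed (0.781%), and of 20 neuronal rows tested 1 passed (5%), against 0.284% of all rows. At 1 row each, these shares are no result about either set. The median log2 change of the microglia rows was 0.07, with 72 above 0.

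For the course over all stages, a slope per stage step (GD17.5, PND2, PND10, PND30, taken as equal steps) was fitted to the 6 libraries. With all nuclei 25 of 4535 rows had a slope (0.551%), of which 19 rose (0.419%) and 6 fell (0.132%). DESeq2 called 34. Without low nuclei, 56 of 2410 rows passed (2.32%), 38 rising (1.58%) and 18 falling (0.747%), and DESeq2 called 32 of 16828 (0.19%). The lists shared 6 rows, 24% of the first and 10.7% of the second, all in the same direction. With each nucleus thinned to 750 UMIs before summing, 15 rows of 830 passed (1.81%), and 11 of them were among the 56. Leaving out a library gave 0 to 42 rows with all nuclei, the fewest without GD17.5 and 1 without PND30 replicate 1. Without low nuclei the same step gave 28 to 63 rows, the fewest without PND30 replicate 2 and 31 without GD17.5.

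Row 8602 carried the clearest course. Its UMIs in all microglia were 0 in the GD17.5 library, 9 in that of PND2, 37 and 26 in the pair of PND10, and 37 and 76 in the pair of PND30. Without low nuclei its level was 70.2 CPM at PND2, 415 and 283 CPM in the PND10 pair, and 1560 and 1369 CPM in the PND30 pair, and at GD17.5 the count of 0 allows up to 3 counts, or 89.1 CPM. PND2, PND10 and PND30 did not overlap, while GD17.5 and PND2 could not be ordered at this depth. The slope was 2.22 ± 0.27 log2 units a stage (SE; adjusted p = 0.00429) with all nuclei and 2.21 ± 0.22 (adjusted p = 5.29e-14) without low nuclei. As row 8602 is a microglia row, the value without low nuclei is not independent of how these were chosen. All other nuclei stayed at 1.21 to 2.24 CPM over the 6 libraries.

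Row 8421 had an equally small p with all nuclei, but not without low nuclei. It went from 17.1 CPM at GD17.5 and 80.6 CPM at PND2 to 208 and 217 CPM in the PND10 pair and 770 and 623 CPM in the PND30 pair, with a slope of 1.64 ± 0.20 (SE; adjusted p = 0.00429). Without low nuclei its slope was 0.61 ± 0.29 (adjusted p = 0.320), and its 49 UMIs of PND30 replicate 1 came down to 5. In the other nuclei it stood at 29.3 to 593 CPM, highest at PND10.

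Of the falling rows, row 10228 fell with all nuclei and without low nuclei. It stood at 581 CPM at GD17.5, 378 CPM at PND2, 114 and 118 CPM in the PND10 pair, and 31.4 and 82.0 CPM in the PND30 pair, with a slope of -1.16 ± 0.19 (SE; adjusted p = 0.0202), and of -1.07 ± 0.24 (adjusted p = 0.00197) without low nuclei. The other nuclei went from 442 CPM at GD17.5 to 53.4 and 53.6 CPM at PND30, so the row stood lower at PND30 outside microglia as well. Row 20939 had a slope of -1.64 ± 0.26 (SE; adjusted p = 0.0202), with 19 and 20 UMIs before PND10 and 0 and 1 at PND30. Without low nuclei its slope was -1.62 ± 0.51 (adjusted p = 0.0680) from 9 UMIs or more only at GD17.5 and PND2, and it stood at 409 CPM at GD17.5 and at 37.5 and 30.5 CPM at PND30 in the other nuclei.

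Seen as a group without low nuclei, the 38 rising rows had slopes of 0.48 to 2.21 log2 units a stage with a median of 0.90, and the 18 falling rows slopes of -1.25 to -0.42 with a median of -0.83. In 5 rising and 2 falling rows the highest level over the libraries was reached in the other nuclei and not in microglia. The falling row with the smallest p, with a slope of -0.78 ± 0.15 (SE; adjusted p = 0.000478), stood at 1663 CPM in the GD17.5 library, 2115 CPM in that of PND2, 1134 and 786 CPM in the pair of PND10, and 334 and 342 CPM in the pair of PND30. It was at 33.6 to 83.5 CPM in the other nuclei. The second strongest rising row went from 119 CPM at GD17.5 and 301 CPM at PND2 to 1660 and 582 CPM in the PND10 pair and 1671 and 2757 CPM in the PND30 pair (slope 1.43 ± 0.17 SE; adjusted p = 3.75e-10), with the PND10 and PND30 libraries next to each other but not overlapping. The other nuclei held it at 238 to 597 CPM, lowest at PND30.

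**Figure D5:**
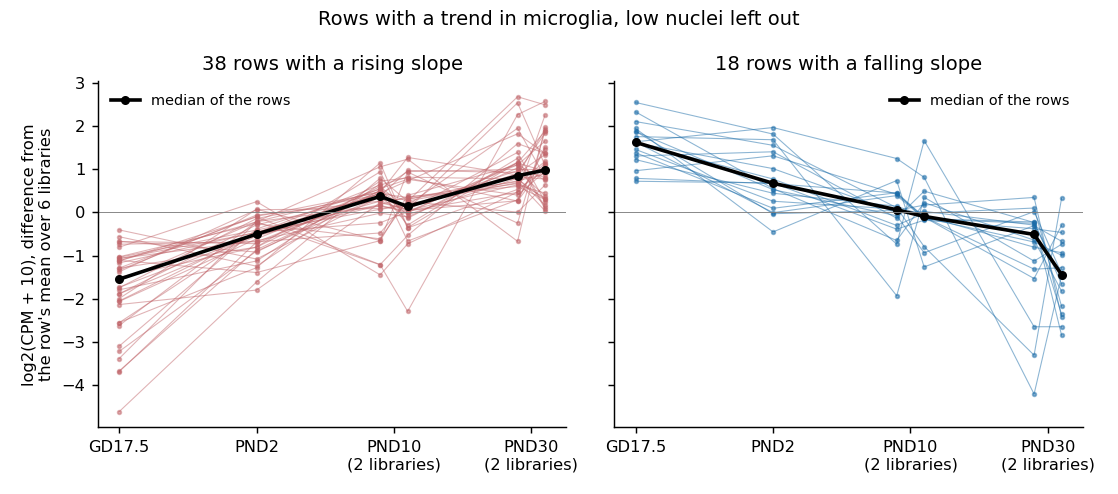
The 38 rising (left) and 18 falling (right) rows of the fit without low nuclei, each a thin line over the 6 libraries, as log2(CPM + 10) minus the row's own mean, with the median of the rows in black. The rows were chosen for their slope, so the direction is given by the choice, and the spread between the libraries of PND30 is wide in single rows.

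Microglia rows had a slope more often than all rows, though most had none. They were chosen for a high level in microglia, and low nuclei for a low share in them. The excess is therefore no result about the rows. With all nuclei 3 of 158 tested microglia rows passed (1.90%), against 0.551% of all rows. Without low nuclei 11 of 154 passed (7.14%), 8 rising and 3 falling, against 2.32% of all rows. Their median slope was 0.19 and 103 of the 154 were above 0, while the median of all rows was -0.0044. By their highest stage mean without low nuclei, 34 of the 160 rows were highest at GD17.5, PND2 had 19 such rows, PND10 had 44 and PND30 had 63. With all nuclei the counts were 41 for GD17.5, 29 for PND2, 0 for PND10 and 90 for PND30. Such counts were not made over all rows, and GD17.5 and PND2 hold 1 library each. They are therefore no result about microglia rows. The full list took 6.44% of the summed UMIs at GD17.5, 6.68% at PND2, 7.86% and 7.48% in the PND10 pair, and 8.73% and 7.70% in the PND30 pair without low nuclei. With them it took 4.38%, 4.76%, 3.78% and 3.35%, and 4.13% and 7.07%, highest in PND30 replicate 2, where low nuclei held the smallest share of UMIs. Neuronal rows were called as well, 4 of the 42 tested without low nuclei (9.52%), 3 of them rising, against the same 2.32%.

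Slopes in microglia were also compared with those in NG2 cells/OPCs of the same 6 libraries, with the library as a block. Whether a course was shared by all glia was not tested. In their own fit NG2 cells/OPCs had 1393 of 10226 rows with a slope (13.6%), from 15 to 268 nuclei a library, so these types were not tested at like depth. The slopes differed in 134 of 7447 rows (1.80%), with 72 higher (0.967%) and 62 lower (0.833%) in microglia. Of 160 microglia rows, 1 differed (0.625%). Of the 226 neuronal rows tested 17 differed (7.52%), 15 of them lower in microglia. Without low nuclei 38 of 5744 rows differed (0.662%), 23 higher (0.4%) and 15 lower (0.261%), and 2 of 137 neuronal rows were among them. The lists shared 26 rows, 19.4% of the first and 68.4% of the second. Without PND30 replicate 1 the count with all nuclei was 50, without GD17.5 it was 65, and without PND2 it was 67.

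The row with the smallest p among those with a higher slope in microglia stood at 0 UMIs at GD17.5, 93.0 CPM at PND2, 109 and 123 CPM in the PND10 pair, and 990 and 525 CPM in the PND30 pair, and NG2 cells/OPCs went from 432 CPM at GD17.5 to 267 and 107 CPM at PND30. The difference of slopes was 2.58 ± 0.29 log2 units a stage (SE; adjusted p = 2.20e-06). Its 63 UMIs in PND30 replicate 1 came from a sum of which low nuclei held 71.8%, and without them the difference was 1.44 ± 0.39 (SE; adjusted p = 0.0344). The first row lower in microglia went from 649 CPM at GD17.5 to 31.4 and 82.0 CPM at PND30, and in NG2 cells/OPCs from 180 CPM to 1403 and 1076 CPM (difference of slopes -2.05 ± 0.27 SE; adjusted p = 7.19e-06), and it was not among the 38 rows without low nuclei. Without low nuclei the first row with a higher slope stood in microglia between 190 and 386 CPM in all 6 libraries, with 386 CPM at GD17.5 and 223 and 266 CPM at PND30, while NG2 cells/OPCs went from 1035 CPM to 77.5 and 44.5 CPM (difference of slopes 1.48 ± 0.26 SE; adjusted p = 4.44e-05). Of the 56 rows with a slope in microglia without low nuclei, 46 were tested in NG2 cells/OPCs, 31 rising and 15 falling. Of the 31 rising rows 9 rose in NG2 cells/OPCs, against 5.72% of all rows tested there, and of the 15 falling rows 4 fell, against 7.9%. Both fits use the same libraries. In the test of the difference without low nuclei, 4 of the 38 rising and 3 of the 18 falling rows differed from NG2 cells/OPCs. Of all rows tested there 0.662% differed. The 56 rows were picked for a slope in the same microglial sums, so this excess is no result about them.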

How the data were processed

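Per the labels and methods, single-nucleus libraries were made with 10x Genomics 3′ chemistry, and the authors counted UMIs per gene with Cell Ranger 5.0.1 on the mouse reference mm10 and annotated clusters in Seurat v4. The authors deposited raw UMI counts of each barcode and row, not normalized, with 1 table of other values (barcode and cluster name). That table holds the nuclei kept after limits on UMIs (at least 750), features (500 to 10000), mitochondrial and ribosomal reads and doublet score. It marks the stage by a suffix, which was matched to the stage holding its barcodes. Whether intronic reads were counted is not given in the sources used here. The number of per-sample columns not used was 0.

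Members and lists were chosen with earlier results of these data known. Counts of microglia were summed per library and tested with edgeR 4.0.16 (TMM, filterByExpr, R 4.3.3), with DESeq2 1.42.0 as an alternative. Rows without names were to be given by number, at most 2 in each direction, by smallest p. Shares used scipy 1.17.1 (Python 3.11.15, numpy 2.4.6). On simulated counts with 200 changed rows, the test between PND30 and PND10 recovered 98.5% of log2 changes of 3 among 3070 rows with 8 false calls, and the trend test 92.5% of slopes of 1.5 among 4034 rows with 4. Without low nuclei the figures were 99% among 1234 rows with 11 and 96.5% among 2012 rows with 7. Simulated counts had the same makeup in each library and the spread of the fit. The figures thus do not cover sums of unequal makeup, as in the PND30 pair, or smaller changes. Libraries of the same number were not used as pairs in the tests. Their deviations correlated at -0.097 with all nuclei and at 0.0079 without low nuclei. At such small counts this does not show that libraries of a number share nothing. For instance, a row called as rising without low nuclei stood at 3128 and 2922 CPM in other nuclei of replicate 1 of PND10 and PND30. In replicate 2 it stood at 1065 and 638 CPM. Alternatives changed the denominator, depth, filter, tool, comparison group, row rule or libraries. Leaving out low nuclei and thinning before summing were added after the data had been seen.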

Additional observations from a re-analysis of the deposited data

Results flagged for a closer look

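The slope over stages differed between microglia and NG2 cells/OPCs in 134 rows, by a test of the difference itself (edgeR quasi-likelihood test with the library as a block), and in 38 rows without low nuclei.

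Barcodes outside the annotation also carried microglia rows. Of 21659 barcodes within the limits on UMIs and features that the annotation does not hold, 116 (0.536%) had a microglia-row share of at least 0.5 times the microglial median of their library, against 0 of 22627 annotated nuclei of other types. GD17.5 held 18 of them, PND2 27, PND10 12 and 45 and PND30 5 and 9, with library medians of 1404 to 3629 UMIs and of 0.908% to 2.06% in neuronal rows. The annotated microglia beside them numbered 14, 32, 27, 48, 8 and 34 in the same order. The shares of microglia over stages were not computed with these barcodes. Below the limits 13 of 13398 barcodes did so. The doublet score and the mitochondrial and ribosomal limits were not recomputed, and their part in leaving these barcodes out was not tested.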

How the results depend on the processing

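For the share of microglia, the difference between PND30 and PND10 was 1.20 percentage points among non-neuronal nuclei in place of -0.67, and -1.15 to -0.19 when 1 library was left out. For UMIs per nucleus it ran from -1490.25 to 231.25 when 1 library was left out. For features it was -273.75 without thinning, and -2.75 to 16.75 when 1 library was left out. No exact permutation test here could pass the threshold under any setting. For rows changed between PND30 and PND10, the 0 became 55 with DESeq2, 86 with the spread over all 6 libraries, 4 without low nuclei, 11 with nuclei thinned to 750 UMIs, and 0 to 456 without 1 library. With the replicate number as a replicate block it became 166 of 3429 (4.84%). The 4 rows without low nuclei became 1 with DESeq2, 14 with the replicate block and 5 to 34 without 1 library. For the trend, the 25 of 4535 rows became 114 of 19459 without a filter on low counts (0.586%) and 56 of 2410 without low nuclei (2.32%). They became 15 of 830 with thinned nuclei (1.81%) and 0 to 42 without 1 library (0% to 0.705%). The 56 became 32 of 16828 with DESeq2 (0.19%) and 12 of 16828 without a filter (0.0713%). Without 1 library they became 28 to 63 (1.05% to 2.97%). The 134 of 7447 rows whose trend differs from NG2 cells/OPCs (1.8%) became 38 of 5744 without low nuclei (0.662%). Without 1 library they became 50 to 140 (0.648% to 2.29%). The share of UMIs in microglia rows averaged 6.91% over libraries, and 13.6% with rows at least 2 times, or 4.02% with rows at least 8 times, the level of other types. A single sum left in a group was assumed to vary like the others. The causes of these changes were not tested. With 8 to 48 nuclei a library, rows of low level could not be tested.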
